A study of Mus musculus with 7 samples.

Results

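The regions described here surround 5 T-box genes of the developing mouse limb: Tbx2, Tbx3, Tbx4, Tbx5 and Tbx15. All peaks whose midpoint lay in 1 of 3 windows of the mouse genome build mm9 were taken, by position alone and without use of any signal. The genes and windows themselves were chosen with earlier results of these data known. The windows were chromosome 5 from 119.5 to 120.9 Mb (Tbx3 and Tbx5), chromosome 11 from 85.4 to 86.1 Mb (Tbx2 and Tbx4) and chromosome 3 from 98.7 to 99.5 Mb (Tbx15), 2.9 Mb in all. They held 268 of the 82921 listed peaks: 84 of 33915 Shox2 peaks of the limb, 44 of 15091 Shox2 positions of the palate and 140 of 33915 Pbx peaks of the limb. A further list, of regions the authors called co-occupied by Shox2 and Pbx, had 40 of its 8999 entries in the windows.

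T-box genes encode transcription factors that share a DNA-binding domain, the T-box. In the mouse, Tbx5 is needed to start forelimb outgrowth, and Tbx4 is expressed in the hindlimb and needed for its growth. Tbx2 and Tbx3 encode mainly repressors that are expressed along the margins of the limb bud and act in digit patterning. Tbx15 acts in the mesenchyme that forms the skeleton of the limb girdles and limbs. Tbx2 with Tbx4, and Tbx3 with Tbx5, are neighbouring pairs that arose from 1 ancestral pair by duplication. Shox2 is a homeodomain factor needed for the proximal limb skeleton and for the anterior palate. Pbx proteins are homeodomain factors of the TALE class, which act as binding partners of other homeodomain proteins and are themselves needed for limb patterning.

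The values come from ChIP-seq (chromatin immunoprecipitation followed by sequencing) on freshly dissected embryonic tissue, with 1 library per group. Shox2 was precipitated with an anti-HA antibody from limb and from palate of material labelled Shox2-HA, at E12.5 (embryonic day). Pbx was precipitated with an anti-Pbx antibody from limb at the same stage, and the labels do not say which Pbx proteins it binds. Strain, zygosity, how the HA tag was introduced, pooling of embryos and the choice of forelimbs, hindlimbs or both: not given in the sources used here. This last point bears on Tbx5 and Tbx4, which mark different limbs. Both tissues were taken in bulk, so binding in few cells and weak binding in many cannot be told apart. The labelled tissues could not be checked against marker genes, since expression was not measured. The other 4 libraries of the series (an input, an anti-HA ChIP titled as a nontagged control, although its sample type label reads Shox2-HA, Shox2 from mixed limb and palate, and Shox2 from E13.5 limb) were not analysed here, so no background list was set against the peaks. The lists hold positions without scores or read counts, so the depth is unknown and no value below has a replicate error.

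The genes are placed only to about 10 kb. The positions taken were 120.12 Mb for Tbx3, 120.3 Mb for Tbx5, the interval from 85.65 to 85.73 Mb for Tbx2 and Tbx4 together, and the interval from 99.05 to 99.15 Mb for Tbx15. In the RefSeq annotation of build GRCm38.p6 the genes are 14.2 kb (Tbx3), 88.7 kb (Tbx5), 9.33 kb (Tbx2), 29.7 kb (Tbx4) and 114 kb (Tbx15) long. In the order of that annotation, the protein-coding neighbours of the Tbx3 and Tbx5 pair are Med13l and Rbm19, those of the Tbx2 and Tbx4 pair are Bcas3 and Brip1, and those of Tbx15 are Wars2 and Spag17. Whether a given peak lies in an exon, an intron or between genes was not determined, as no mm9 annotation was used here, and peaks were not assigned to a target gene.

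**Figure D1:**
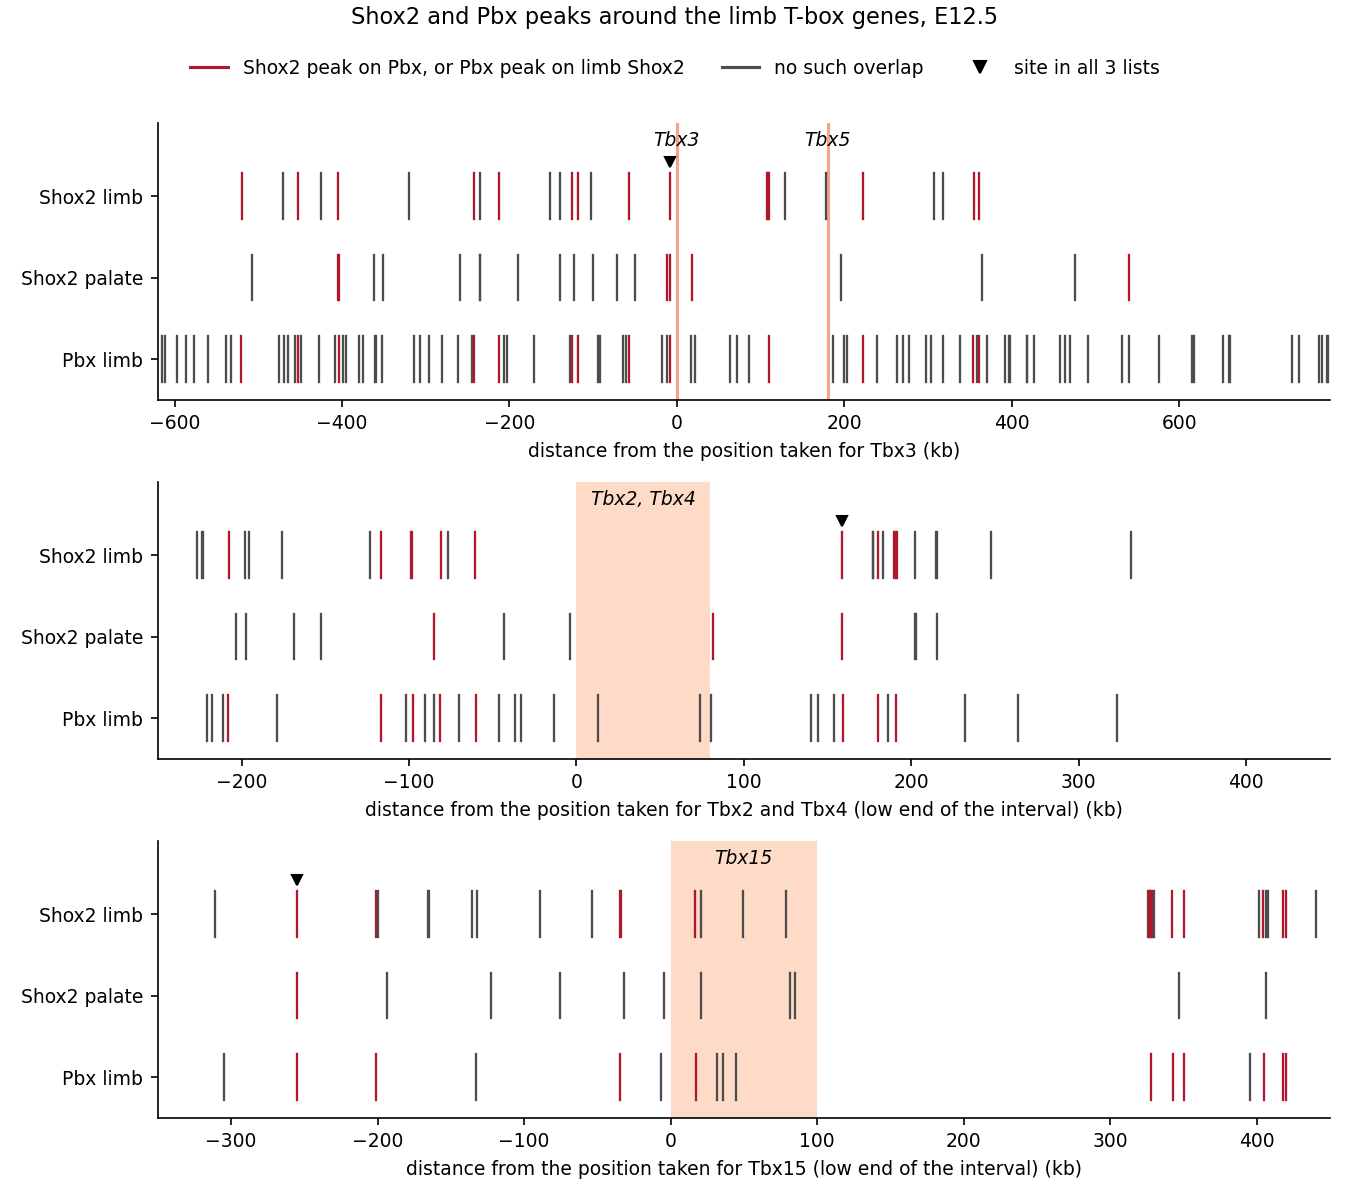
Peaks of the Shox2 limb, Shox2 palate and Pbx limb lists in the 3 windows, each drawn as a line at its midpoint, by distance in kb from the position taken for the first gene of the window (orange line or shading: gene positions). Red marks a Shox2 peak on Pbx or a Pbx peak on limb Shox2, and each window has 1 triangle, a site held by all 3 lists. Pbx lines are the most crowded in the Tbx3 and Tbx5 window, with 93 peaks, and no Shox2 line falls in the interval taken for Tbx2 and Tbx4.

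All 3 lists were denser in all 3 windows than over the genome, to degrees that differed between loci. The window of Tbx3 and Tbx5 was crowded with Pbx. It held 93 Pbx peaks, 66.4 per Mb, against 12.8 per Mb over the 19 autosomes and X, a ratio of 5.18. Cut into 1871 tiles of the same length, the genome had 3 tiles with as many Pbx peaks or more. Shox2 limb peaks were only moderately dense there, with 26 peaks or 18.6 per Mb, against 12.9 per Mb over the genome. Of the 1871 tiles, 465 (24.9%) held as many. The 21 palate positions, 15.0 per Mb against 5.72 per Mb over the genome, were matched or exceeded by 6.36% of tiles.

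All 3 lists were dense at Tbx2 and Tbx4, and at Tbx15 limb Shox2 was denser than Pbx. The window of Tbx2 and Tbx4 held 27 Shox2 limb peaks (38.6 per Mb), 12 palate positions (17.1 per Mb) and 30 Pbx peaks (42.9 per Mb). Each list was about equally raised there, at 2.999 times the genome's density for limb Shox2, 2.996 times for palate Shox2 and 3.34 times for Pbx. Tiles of the same length with as many peaks made up 5.17%, 6.28% and 3.51% of 3756 tiles for the same lists. The window of Tbx15 held 31 Shox2 limb peaks (38.8 per Mb, 3.01 times the genome), 11 palate positions (13.8 per Mb, 2.40 times) and 17 Pbx peaks (21.3 per Mb, 1.66 times). As many Shox2 limb peaks were found in 4.84% of 3287 tiles of that length, and as many Pbx peaks in 21.3%. The loci thus differed in composition: Pbx peaks outnumbered Shox2 limb peaks by 93 to 26 at Tbx3 and Tbx5, were about as many at Tbx2 and Tbx4 (30 and 27) and were fewer at Tbx15 (17 and 31). With peaks at most 1 kb apart merged, the Pbx and Shox2 limb counts were 87 and 25, 30 and 21, and 16 and 22 at the same loci. The ranks among tiles describe these lists, and the difference from the rest of the genome was not tested.

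**Figure D2:**
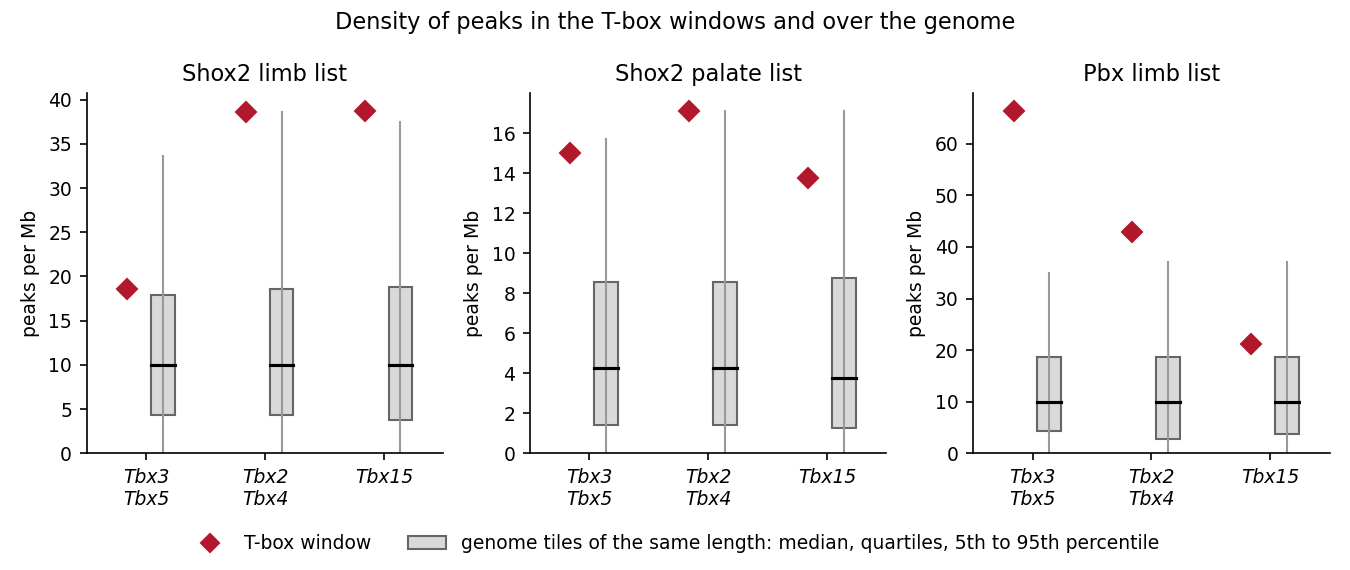
Peaks per Mb (vertical axes) in the T-box windows (diamonds, left) and in genome tiles of the same length (boxes, right: median, quartiles and 5th to 95th percentile), for each list. The Pbx density at Tbx3 and Tbx5 (66.4 per Mb) and at Tbx2 and Tbx4 (42.9 per Mb) lies above the 95th percentile of the tiles, and the Shox2 limb densities at Tbx2 and Tbx4 (38.6 per Mb) and at Tbx15 (38.8 per Mb) lie near that percentile.

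A larger share of Shox2 limb peaks met Pbx at these loci than elsewhere, while the share of Pbx peaks that met Shox2 was close to the background. In the windows, 40 of 84 Shox2 limb peaks overlapped a Pbx limb peak by at least 1 bp (47.6%, exact binomial 95% interval 36.6 to 58.8%), where the whole Shox2 limb list had 26.5%. Outside the windows the share was 26.5% as well (8959 of 33831). Of the 140 Pbx peaks, 31 overlapped limb Shox2 (22.1%, interval 15.6 to 29.9%), where the whole Pbx list had 23.4%. By locus, 15 of 26 peaks overlapped Pbx at Tbx3 and Tbx5 (57.7%, interval 36.9 to 76.7%), 11 of 27 at Tbx2 and Tbx4 (40.7%, 22.4 to 61.2%) and 14 of 31 at Tbx15 (45.2%, 27.3 to 64.0%). The intervals of the 3 loci overlap each other, and that of Tbx2 and Tbx4 includes 26.5%. With peaks at most 1 kb apart merged, the share outside the windows was 26.0%. The interval of Tbx15 (10 of 22, 24.4 to 67.8%) then included it, as did that of Tbx2 and Tbx4 (18.1 to 61.6%). That of Tbx3 and Tbx5 (34.9 to 75.6%) did not. These 40 peaks are exactly the 40 regions of the deposited co-occupancy list in the windows, so that list adds no measurement. The intervals treat peaks as independent, which neighbouring peaks are not, and cover counting error only.

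The excess on the Shox2 side depended on the rule of overlap. When the Shox2 midpoint had to lie inside a Pbx peak, 39 of 84 met Pbx (46.4%), against 25.8% outside the windows. That rule could hardly change the result. Of the 40 Shox2 peaks that overlapped Pbx by 1 bp or more, 37 lay wholly within the Pbx peak (92.5%, against 87.4% outside). The excess was smaller or absent under the rules that set peaks to 200 bp or asked for 50% of both peaks. With every peak set to 200 bp around its midpoint, 17 of the 84 Shox2 limb peaks overlapped Pbx (20.2%, interval 12.3 to 30.4%), against 16.4% outside the windows. When 50% of both peaks had to be shared, 3 of 84 did (3.57%, interval 0.743 to 10.1%), against 5.31% outside the windows. The windows thus no longer stood clear of the rest under either of these last rules. Under the second the share was lower, with an interval that includes 5.31%. That rule can be met only where the narrower peak is at least 50% as wide as the wider one. Its outcome thus depends on peak width. The 1 bp and midpoint rules depend on width too, as wider Pbx peaks meet them more readily. None of these rules can decide whether the factors share a site. Pbx covered 7.34% of the Tbx3 and Tbx5 window, 6.74% of the Tbx2 and Tbx4 window and 2.58% of the Tbx15 window, against 1.33% of the genome. The 31 Pbx peaks under the 40 Shox2 peaks had a median width of 1556 bp, against 1067 bp for the 7896 outside the windows. How much of the excess goes with Pbx coverage was not tested.

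Shox2 and Pbx midpoints lay further apart in the windows, where the Pbx peaks were also wider. The median distance between the midpoints of a Shox2 peak and the Pbx peak it met was 271 bp (quartiles 124 and 486 bp) in the windows, against 142 bp (63 and 288 bp) outside them. Shox2 midpoints lay within the central 50% of the Pbx peak in 27 of 40 cases (67.5%, interval 50.9 to 81.4%), against 78.7% of 8959 outside. That interval includes 78.7%, so a difference in central placement was not detectable. At Tbx15 it did so in 7 of 14 cases, at Tbx3 and Tbx5 in 11 of 15 and at Tbx2 and Tbx4 in 9 of 11. Shox2 limb peaks off Pbx were still near it: their median distance to the nearest Pbx midpoint was 5.66 kb for the 44 in the windows, against 26.3 kb for 24872 outside. Pbx peaks are also denser in the windows, and how much of the shorter distance goes with this was not tested.

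**Figure D3:**
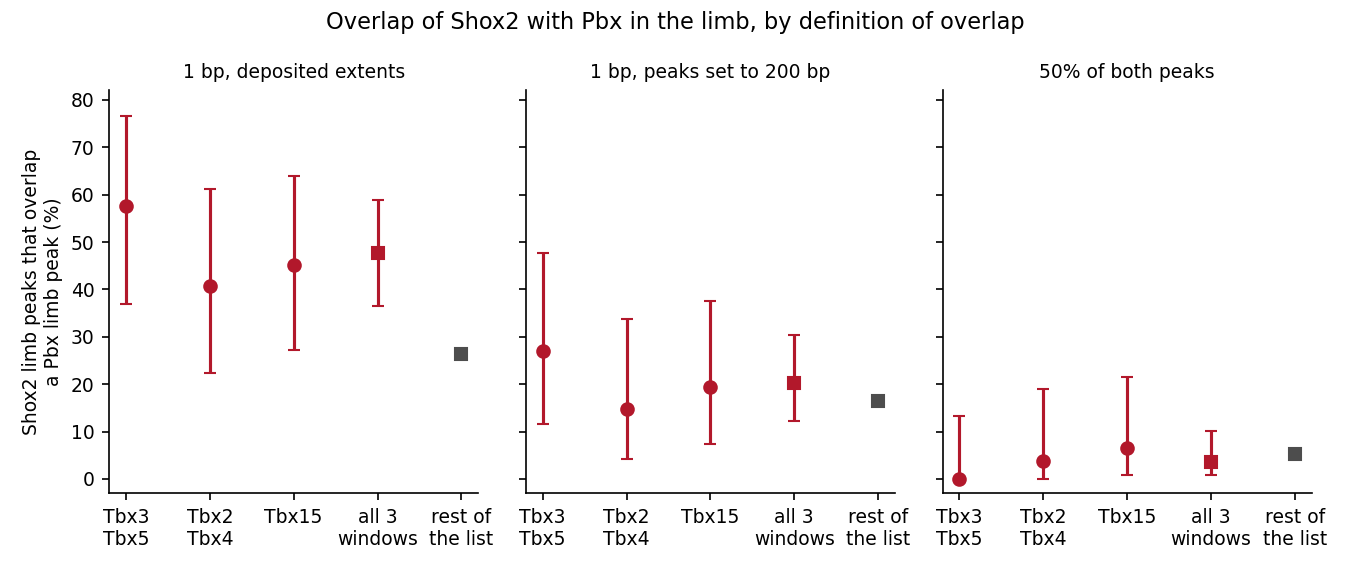
Share of Shox2 limb peaks that overlap a Pbx limb peak (%), for each T-box window, the windows together and the rest of the list, under 3 rules of overlap. Bars are exact binomial 95% intervals for counting error. The windows together stand at 47.6% against 26.5% at the deposited extents, at 20.2% against 16.4% with peaks set to 200 bp, and at 3.57% against 5.31% when 50% of both peaks must be shared.

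At the Tbx2 and Tbx4 locus lay the widest of all 33915 Shox2 limb peaks. This peak, chr11:85829061-85831418, spanned 2358 bp, where the widest Shox2 limb peak outside the windows had 2282 bp and the median was 261 bp. It stood at line 1083 of the Shox2 file, 100.2 kb beyond the high end of the interval taken for Tbx2 and Tbx4. A Pbx peak of 3316 bp, chr11:85828618-85831933, enclosed it and stood at line 188 of the Pbx file. Further from the genes, a Pbx peak of 2335 bp, chr11:85839839-85842173, met 3 Shox2 limb peaks. On the other side of the genes, a Pbx peak of 4569 bp, chr11:85549968-85554536, held 2 Shox2 limb peaks of 615 and 414 bp. The Shox2 limb peak of this window that stood first in its file, chr11:85568814-85569163 at line 862, also lay on a Pbx peak, 81.0 kb below the interval. Another high in the file, chr11:85526797-85527066 at line 1090, was off Pbx and 123 kb below the interval.

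The interval taken for Tbx2 and Tbx4 itself held no midpoint of a Shox2 peak from limb or palate. Limb Shox2 left a stretch of 219 kb without a peak across it, from chr11:85589424 to chr11:85808748. Stretches without Shox2 limb peaks are common, and 2520 of the same length or more were found over the genome. The stretch held 11 Pbx peaks and 3 palate positions. The widest Pbx peak of the window, chr11:85728030-85732619 with 4590 bp, lay across the high end of the interval and overlapped no Shox2 limb peak. It held a palate position, chr11:85731722, at line 6720 of the palate file. The 2 Pbx peaks with midpoints inside the interval, of 1952 and 1176 bp, overlapped no Shox2 peak of either tissue. Shox2 limb peaks thus lay on either side of this gene pair, with 14 below the interval and 13 above it.

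At Tbx3 and Tbx5 the widest peaks of both factors lay together, between the positions taken for the genes. Whether they lie outside both genes was not determined. A Pbx peak of 3903 bp, chr5:120227849-120231751, stood at line 184 of its file and was the widest of the 93. It held 3 Shox2 limb peaks of 175, 450 and 899 bp. The last of these, chr5:120229766-120230664, was the widest and first-listed Shox2 limb peak of the window, at line 3446 and 69.8 kb below the position taken for Tbx5. The Pbx peak highest in the file, chr5:119720819-119722598 at line 86, lay 398 kb below Tbx3 and met no Shox2 limb peak. The other Shox2 limb peaks high in the file, chr5:119994722-119995051 at line 3773 and chr5:120474369-120474639 at line 5909, were both on Pbx, 125 kb below Tbx3 and 174.5 kb above Tbx5. A further Pbx peak high in the file, chr5:120480468-120482274 at line 1004, met 1 Shox2 limb peak, 181 kb above Tbx5. Few Pbx peaks did so here. Of the 93 Pbx peaks, 13 overlapped limb Shox2 (13.98%, interval 7.66 to 22.7%), against 23.4% of the whole Pbx list. At Tbx15 10 of 17 did (58.8%, 32.9 to 81.6%), and at Tbx2 and Tbx4 8 of 30 (26.7%, 12.3 to 45.9%). Most Pbx peaks at Tbx15 thus met limb Shox2, and most at Tbx3 and Tbx5 did not. Limb Shox2 peaks covered 1.35% of the Tbx15 window and 0.522% of the Tbx3 and Tbx5 window. The intervals treat neighbouring peaks as independent, and the difference between the loci was not tested.

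Peaks were unevenly spread along the Tbx3 and Tbx5 window. It was cut at the single position taken for each gene, so parts of the genes may lie in the stretches named here. The 620 kb below Tbx3 held 16 Shox2 limb peaks, 16 palate positions and 47 Pbx peaks. The 180 kb between Tbx3 and Tbx5 held 5 Shox2 limb peaks, 1 palate position and 6 Pbx peaks. The 600 kb above Tbx5 held 5 Shox2 limb peaks, 4 palate positions and 40 Pbx peaks. Limb Shox2 was thus sparser above Tbx5 (8.33 per Mb) than below Tbx3 (25.8 per Mb) or between the genes (27.8 per Mb). Of the 5 peaks between the genes, however, 3 lay on the single Pbx peak of 3903 bp. Palate Shox2 was densest below Tbx3, at 25.8 per Mb. Pbx was dense on both flanks, at 75.8 per Mb below Tbx3 and 66.7 per Mb above Tbx5, and less so between the genes, at 33.3 per Mb. The Shox2 limb peak nearest to Tbx5, chr5:120297965-120298211, lay 1.91 kb from the position taken for the gene and off Pbx. The nearest Pbx peak, chr5:120305793-120306562, lay 6.18 kb from that position and the nearest palate position, chr5:120316690, 16.7 kb, neither in a Shox2 limb peak. With a position known to about 10 kb, whether it lies at the start of Tbx5 was not determined.

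At Tbx15 the main cluster of limb peaks lay beyond the gene. A Pbx peak of 3191 bp, chr3:99376281-99379471, 228 kb above the interval taken for Tbx15, met 4 Shox2 limb peaks. The widest of them, chr3:99377271-99378492, had 1222 bp, rank 84 in width among all Shox2 limb peaks, and stood at line 555 of the file. A second peak stood as high, chr3:98848726-98849108 at line 548, 201 kb below the interval and also on Pbx. Inside the interval, 4 Shox2 limb peaks, 3 palate positions and 4 Pbx peaks were found, and 1 of the 4 Shox2 limb peaks was on Pbx. The first-listed Pbx peak of the window, chr3:99468946-99471057 at line 226, had 2112 bp and met 1 Shox2 limb peak, 320 kb above the interval. The next, chr3:98744594-98745741 at line 1131, met none, 305 kb below it. Above the interval 9 of 15 Shox2 limb peaks were on Pbx (60%) and below it 4 of 12 (33.3%). The share inside it was 25%, and the whole Shox2 limb list had 26.5%. Of the 9 above, 4 met the same Pbx peak of 3191 bp, and the difference between the sides was not tested. Since Wars2 and Spag17 flank Tbx15, the outer peaks may be as near to those genes as to Tbx15, which was not determined.

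Only some of the peaks near these genes were shared between limb and palate. Of the 44 palate positions, 9 lay in a Shox2 limb peak (20.5%, exact interval 9.80 to 35.3%), where the whole palate list had 14.2%. By locus these were 4 of 12 at Tbx2 and Tbx4, 3 of 11 at Tbx15 and 2 of 21 at Tbx3 and Tbx5. On a limb Pbx peak lay 10 of the 44 (22.7%, interval 11.5 to 37.8%), where the whole palate list had 15.6%. These were 6 of 21 at Tbx3 and Tbx5, 3 of 12 at Tbx2 and Tbx4 and 1 of 11 at Tbx15. In the other direction, 9 of 84 Shox2 limb peaks held a palate position (10.7%), where the whole list had 6.28%, and 9 of 140 Pbx peaks did (6.43%), where the whole list had 6.62%. The pooled intervals of the palate positions include the share of the whole list in both cases, and no difference from it was detectable with 44 positions. With peaks set to 200 bp, 3 of 44 palate positions met Pbx (6.82%), against 9.38% outside the windows. A site missing from a list may lie below that list's cutoff.

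Each window held exactly 1 Shox2 limb peak that was on Pbx and also held a palate position. At Tbx3 and Tbx5 it was chr5:120111324-120111566, 243 bp wide, 8.56 kb below the position taken for Tbx3. Of all Shox2 limb peaks in the window it was the nearest to Tbx3, on a Pbx peak of 2408 bp, and the palate position in it, chr5:120111552, stood near the end of the palate file, at line 14905. At Tbx2 and Tbx4 it was chr11:85808749-85808933, 185 bp wide and 78.8 kb above the interval. At Tbx15 it was chr3:98794783-98795800, 1018 bp wide, 255 kb below the interval, on a Pbx peak of 1560 bp. This last site stood high in every list, at line 2583 for limb Shox2, 2908 for Pbx and 164 of 15091 for palate Shox2. The 3 sites made up 3.57% of the 84 Shox2 limb peaks, against 2.30% outside the windows.

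Some palate positions high in the palate file were not in any Shox2 limb peak. The highest of all 44 was chr5:120137876 at line 49, 17.9 kb above the position taken for Tbx3, in a Pbx peak of 3485 bp without limb Shox2. At line 216, chr11:85564935 lay in a Pbx peak of 1036 bp without limb Shox2, 85.1 kb below the interval taken for Tbx2 and Tbx4. By contrast, chr5:119980264 at line 116 lay in a Shox2 limb peak of 219 bp without Pbx, 140 kb below Tbx3. Of the 44 positions, 10 stood in the first 10% of the palate file (22.7%), against 9.96% outside the windows. Of the 84 Shox2 limb peaks 6 did in theirs (7.14%, against 10.01%), and of the 140 Pbx peaks 21 (15.0%, against 9.98%). The files do not state that their order is a ranking. Widths fell from the top to the bottom of both limb files, with a Spearman's rho of -0.58 across 33915 Shox2 peaks and of -0.51 across 33915 Pbx peaks.

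Peaks on which both factors met were wider than the others, inside the windows as outside. Shox2 limb peaks on Pbx had a median of 333 bp in the windows, against 326 bp outside them. Those off Pbx had 219 bp in the windows, against 245 bp outside. Pbx peaks on limb Shox2 had a median of 1556 bp in the windows, against 1067 bp outside, and Pbx peaks off it had 920 bp, against 852 bp. Wider peaks have more extent on which to meet others, and how much of the difference in width goes with this was not tested. Over all Shox2 limb peaks the widths hardly differed, with medians of 260 bp in the windows and 261 bp outside.

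**Figure D4:**
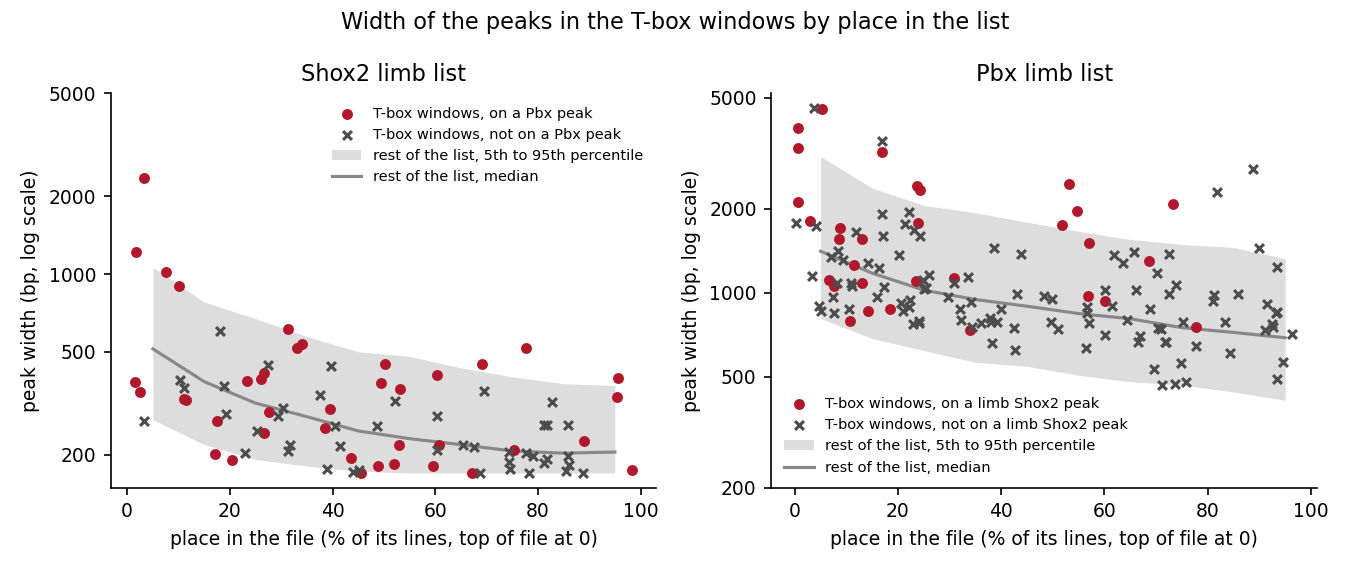
Width of each Shox2 limb peak (left) and Pbx limb peak (right) of the T-box windows, in bp on a log axis, by its place in the file in percent of the lines. Red points overlap the other factor, crosses do not, and the grey line and band give the median and the 5th to 95th percentile of the rest of the list. The Shox2 limb peak of 2358 bp stands above all others in the left panel, and in the right one the Pbx peaks of 4590 and 4569 bp at Tbx2 and Tbx4 stand highest.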

How the data were processed

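ChIP-seq peak lists of 3 libraries were analysed (Shox2 limb, Shox2 palate and Pbx limb, embryonic day 12.5), with the series' list of co-occupied regions. Per the submitters' processing notes, Bowtie, MACS2 and build mm9 were used, with versions, peak calling settings and cutoffs not given in the sources used here. Deposited entries are a chromosome with start and end positions in bp, without score or read count, so depth and precision are unknown; both limb lists hold 33915 entries. Palate entries are 1 bp wide. The authors' signal tracks, per the labels' design text filtered against an untagged ChIP, were not used; whether the lists were is not stated.

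Peaks were assigned by midpoint, overlap meant at least 1 bp, densities over the genome used each chromosome up to its last listed peak, and shares carry exact Clopper-Pearson 95% intervals. No test was made: each group has 1 library, and the genes and windows were chosen with earlier results of these data known. Peaks named in each window are the 3 Shox2 limb and 3 Pbx peaks first in file order, the widest, those at or nearest to a gene position, and sites in all 3 lists; others named (Pbx peaks with several Shox2 peaks, palate positions high in the file) were chosen after their values were seen. Gene positions came with the windows; counts at other T-box and limb genes were not made, as no mm9 annotation was used here. RefSeq (GRCm38.p6) gave gene lengths and neighbours for all 5 genes. No mm9 genome was used here, so no peak sequence is shown. Alternatives covered the rule of overlap, list length, window bounds, merging of peaks and each window left out. Overlap and distance functions were tested on simulated intervals. Python 3.11.15, NumPy 2.4.6, pandas 2.3.3, SciPy 1.17.1 and matplotlib 3.10.9 were used.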

Additional observations from a re-analysis of the deposited data

How the results depend on the processing

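Of 56 values computed for the windows together under alternative settings, 47 stayed within the interval of the reported share or within 1.5 times the reported density. Some of these 47 could not move or did not: the palate density was fixed when only the limb lists were cut. Taking peaks by any overlap with a window, not by midpoint, left every density unchanged. The share of Shox2 limb peaks on Pbx was 20.2% with peaks set to 200 bp and 3.57% when 50% of both peaks had to be shared; in the other 9 alternatives it ran from 39.1 to 50.9%, and in 10 of 11 it was above the share outside the windows. The exception was the rule of 50% of both peaks. The share of palate positions on Pbx was 6.82% with peaks set to 200 bp, below the rest. Cutting the limb lists in file order to the length of the palate list gave 14.1 Shox2 limb and 27.2 Pbx peaks per Mb, and the first 50% of each list gave 15.9 Shox2 limb, 28.3 Pbx and 8.28 palate peaks per Mb, against 29.0, 48.3 and 15.2 with whole lists; shorter lists lower these by construction. Without the Tbx3 and Tbx5 window the Pbx density was 31.3 per Mb. Leaving out a window and merging peaks for the shares were chosen after seeing the data. No paired analysis was possible because every ChIP is a single library, which also means that none could be left out. Absence from a list may mean a signal below its cutoff, since depth is unknown.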

Other observations

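A stretch of 241 kb, from chr3:99135255 to chr3:99375819, held no peak of any of the 3 lists. It began inside the interval taken for Tbx15, near the high end, and lay mostly above the interval. At the high end of the stretch began the group of Shox2 limb peaks of which 4 shared a Pbx peak. Over the genome 1033 stretches of that length or more held no peak of any list, 19.5% of the genome. The longest such stretches in the other windows were 74.0 kb at Tbx3 and Tbx5 and 59.4 kb at Tbx2 and Tbx4, of which the second ran through the interval taken for the genes.

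Several Shox2 limb peaks could share a single Pbx peak. In the windows 5 of the 31 Pbx peaks on limb Shox2 met 2 or more Shox2 peaks (16.1%), against 955 of 7896 outside (12.1%).

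At the edges of the windows, the Shox2 limb peak just inside lay 100 kb (Tbx3 and Tbx5), 23.4 kb (Tbx2 and Tbx4) and 38.7 kb (Tbx15) from the low edge, and the one just outside 10.8, 59.3 and 0.561 kb from it. At the high edge those inside lay at 419, 119 and 9.15 kb, and those outside at 483, 111 and 13.9 kb. With the windows extended by 200 kb at each end, 49 of 115 Shox2 limb peaks were on Pbx (42.6%).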
